A study of Mus musculus with 8 samples.

Results

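Genes for axon guidance ligands and receptors were followed in cultured mouse embryonic fibroblasts that differ in TAF4, one of the proteins that make up TFIID, the complex that binds core promoters. Members were chosen by symbol: semaphorins of classes 3 to 7, plexins, neuropilins, Eph receptors, ephrins, slits, robos, netrins and Unc5 receptors. The rule found 68 genes (93 transcripts) among the 23235 symbols of the deposited expression table, and used no measured value. Members were, however, chosen with earlier results of these data known. Of the 68, 43 reached 1 FPKM (sequenced fragments per kilobase of RNA and per M fragments of the library, where M is 10 to the power of 6) in at least 2 libraries and were tested, and 25 were not.

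The RNA sequencing series holds 8 libraries in 4 groups of 2. TAFH-deleted rescue cells are Taf4 -/- fibroblasts with a transgene, Tg: hTAF4 Δ, for human TAF4 without its TAFH domain. Wild-type rescue cells are Taf4 -/- fibroblasts with Tg: hTAF4 wt, the full-length human protein. Knockout cells are Taf4 -/- with no transgene named, and control cells are Taf4 loxp/-. The control thus carries 1 floxed and 1 null allele, although another label calls it wild type, so every group lacks at least 1 intact copy of Taf4. All are of strain C57BL/6 and were grown in medium with serum. Each rescue library is from a separate stable clone, and the promoter that drives the transgene is not given in the sources used here. The 2 knockout and the 2 control libraries are replicates by their labels, which leave unstated whether these were separate cultures. With each of these pairs counted as 1 sample, p-values hold only the spread between the rescue clones.

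Guidance cues steer growing axons and also migrating cells outside the nervous system. Secreted class 3 semaphorins act mainly through neuropilins, which bind the ligand, and plexins, which signal, whereas most other semaphorins sit in the membrane and bind plexins directly. Ephrins are membrane-bound ligands of the Eph receptor tyrosine kinases, slits are secreted ligands of robo receptors, and netrins are laminin-related proteins that repel cells through Unc5 receptors. Fibroblasts and other mesenchymal cells are a known source of semaphorins, slits and netrins. The TAFH domain of TAF4 is a docking surface for transcription factors, E proteins among them, and E proteins bind the E-box, CANNTG.

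Depth recovered from the steps between low FPKM values was 14.3 and 16.2 M fragments in the TAFH-deleted clones, 17.1 and 16.9 in the wild-type clones, 14.8 in each knockout library, and 17.2 and 17.3 in the control libraries. The 2 knockout libraries and the 2 control libraries differed by less than sampling noise, with a chi-square per gene of 0.580 ± 0.0266 in knockout and 0.734 ± 0.0288 in control (SE). Each pair was therefore averaged and counted as 1 sample, whereas the clones differed by more, at 1.75 ± 0.0513 in TAFH-deleted rescue and 1.37 ± 0.0397 in wild-type rescue. Taf4a, the mouse Taf4 gene, was at 14.7 and 19.2 FPKM in TAFH-deleted rescue, 14.5 and 15.0 in wild-type rescue, 12.5 and 12.4 in the libraries labelled knockout, and 11.1 and 11.5 in control. The whole transcript is counted there, with no value for the floxed part alone, so this level does not check the knockout label. Every direction given for a comparison with the knockout libraries rests on that label. The comparison of the rescue forms uses none of these libraries, though both forms are labelled Taf4 -/-, which is equally unchecked. Of 10 fibroblast markers 8 reached 1 FPKM, with sums between 778 and 887 FPKM over the libraries, while Thy1 and Fap stayed at or below 0.119 FPKM. Fragments filled 92.7% to 97.3% of the possible read starts in the most covered gene of each library. Whether a limit on read starts levels the marker sums was not tested, so the sums do not measure the share of fibroblasts. Of 9 neuron markers listed, 1 reached 1 FPKM, the tubulin gene Tubb3, and Nefl, Nefm and Snap25 were listed at 0 in all libraries. None of 8 endothelial and 6 epithelial markers reached 1 FPKM, and 1 of 8 markers of glia and neural crest did. Of 6 macrophage markers 4 did, with Ptprc and Emr1 at or below 0.0229 FPKM.

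Among the tested members 24 of 43 averaged at least 10 FPKM over the 8 libraries, and 35 reached 1 FPKM in every library. Ligands and receptors of each family were among them. Sema3f, a secreted semaphorin that binds Nrp2, had the highest mean, with 90.4 and 54.4 FPKM in TAFH-deleted rescue, 75.9 and 77.3 in wild-type rescue, 86.8 and 86.8 in knockout, and 68.0 and 68.0 in control. Nrp2, a receptor for class 3 semaphorins, followed with 79.9 and 46.8 FPKM in TAFH-deleted rescue, 73.4 and 79.7 in wild-type rescue, 60.3 and 59.5 in knockout, and 73.7 and 72.8 in control. In both genes TAFH-deleted clone 2 was the lowest library. Unc5b, a netrin receptor, was at 56.2 and 64.6 FPKM in TAFH-deleted rescue, 70.0 and 64.9 in wild-type rescue, 56.7 and 56.5 in knockout, and 54.0 and 53.7 in control. Its wild-type clones were above or level with the other libraries, and its control libraries were lowest.

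The most abundant ephrin, Efna1, a lipid-anchored ligand of EphA receptors, was at 53.2 and 39.8 FPKM in TAFH-deleted rescue, 38.0 and 46.1 in wild-type rescue, 40.8 and 40.1 in knockout, and 41.6 and 41.0 in control. Efna5, a second lipid-anchored ephrin, was at 22.4 and 20.0 FPKM in TAFH-deleted rescue, 22.3 and 23.2 in wild-type rescue, 19.6 and 20.4 in knockout, and 22.1 and 23.0 in control. Neither gene separated the groups by more than its range among the clones. Ephb4, a receptor for ephrin-B2, was at 45.1 and 33.6 FPKM in TAFH-deleted rescue, 39.6 and 38.3 in wild-type rescue, 39.1 and 38.3 in knockout, and 39.4 and 38.8 in control. Ephb3, an ephrin-B receptor, was at 35.4 and 13.7 FPKM in TAFH-deleted rescue, 39.9 and 44.4 in wild-type rescue, 29.8 and 29.0 in knockout, and 29.2 and 29.1 in control. In Ephb3 a single TAFH-deleted clone, clone 2, was low and its other clone lay above knockout and control. Slit2, a secreted robo ligand, was at 21.2 and 38.7 FPKM in TAFH-deleted rescue, 24.9 and 25.8 in wild-type rescue, 38.4 and 37.6 in knockout, and 26.2 and 26.5 in control. Robo1, a slit receptor, was at 18.9 and 15.7 FPKM in TAFH-deleted rescue, 25.9 and 22.0 in wild-type rescue, 18.4 and 18.6 in knockout, and 17.5 and 17.9 in control. Slit2 was highest in TAFH-deleted clone 2 and in both knockout libraries, and Robo1 was highest in the wild-type clones.

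**Figure D1:**
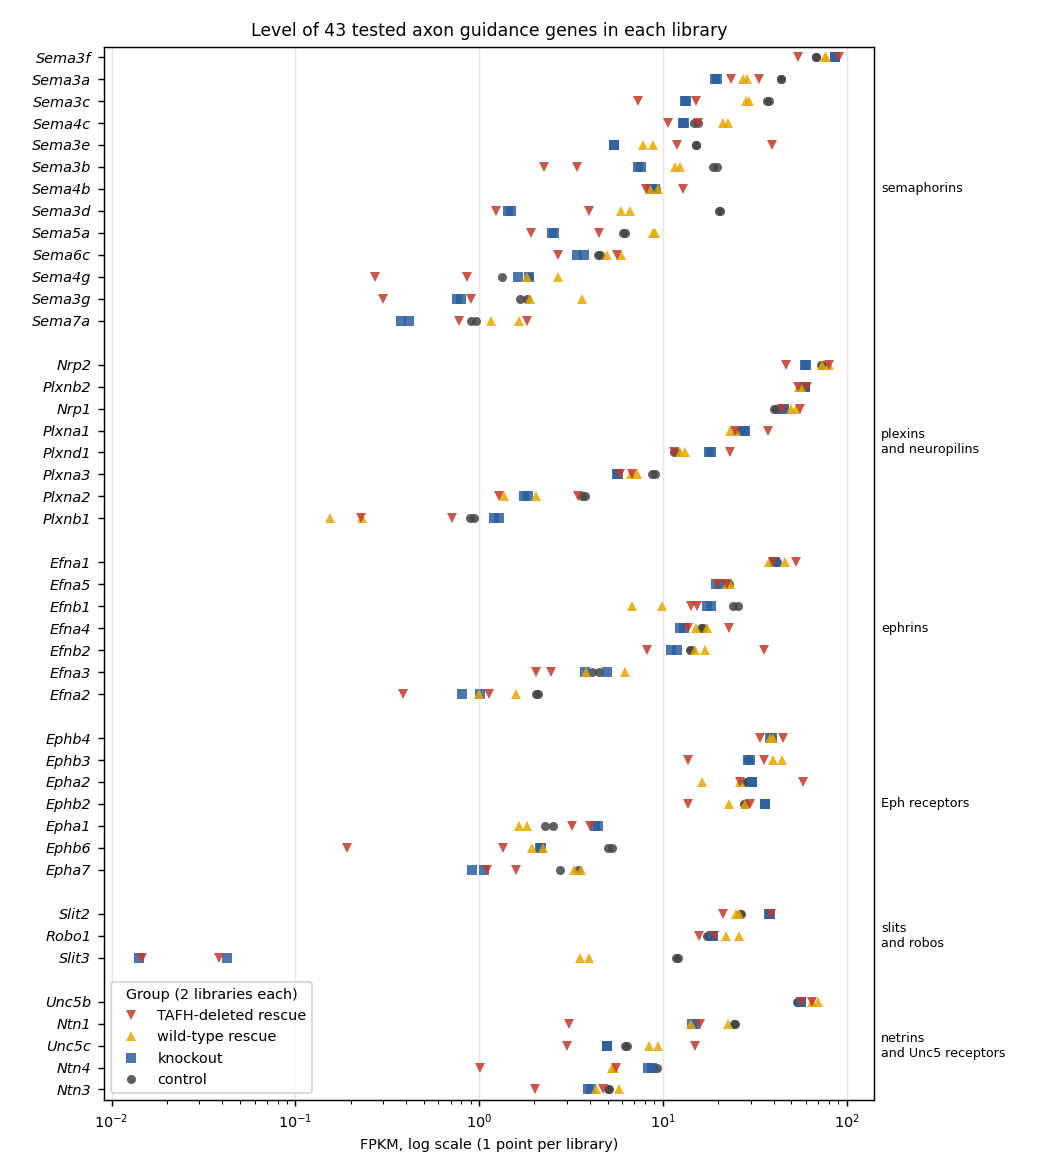
FPKM (log axis) of the 43 tested genes in each of the 8 libraries, 1 point per library, grouped by family and ordered by mean within it, with colour and shape marking the 4 groups. Points lie close together for most abundant genes such as Plxnb2, while Slit3 spans the widest range, between 0.0141 and 12.0 FPKM.

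The 25 members not tested peaked at 1.06 FPKM. They were 7 Eph receptors, 7 semaphorins, 4 slits and robos, 3 plexins, 3 netrins and Unc5 receptors, and the ephrin Efnb3. Robo3, Robo4 and Epha10 were listed at 0 in all libraries. Of the rest, Epha3 and Sema4a reached 1 FPKM in a single library each. Plxnb1, a receptor for class 4 semaphorins, was tested through its knockout libraries alone, at 0.710 and 0.227 FPKM in TAFH-deleted rescue, 0.230 and 0.155 in wild-type rescue, 1.21 and 1.28 in knockout, and 0.897 and 0.943 in control, so its difference from knockout is partly set by the filter.

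In the libraries labelled knockout, 8 of the 43 tested members were at least 2-fold lower than in control, on the scale of log2(FPKM + 1), and 0 were 2-fold higher. Counts of 2-fold members and genes are on that scale, which shrinks the differences of low genes. Of all 12025 genes tested, 5.76% were 2-fold lower and 0.798% were 2-fold higher. The 8 were the class 3 semaphorins Sema3a, Sema3b, Sema3c, Sema3d and Sema3e, the membrane semaphorin Sema5a, Slit3 and Epha7. Counting any size of difference, 29 members were lower and 14 higher, against 54.9% and 45.1% of all genes. The median difference was -0.27 over the members and -0.03 over all genes. No gene of the 12025 passed limma at an adjusted p of 0.05 in this comparison, where each side is 1 sample, and at an unadjusted p under 0.05 there were 6 members lower and 0 higher, against 6.85% and 2.36% of all genes. With quantile normalization, 24 members were lower and 19 higher, and 6 were 2-fold lower, against 3.65% of all genes. In bulk RNA, fewer cells of a type and less RNA per cell cannot be told apart.

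More members were higher than lower in wild-type rescue compared with the libraries labelled knockout. Of the 43 members, 6 were at least 2-fold higher in wild-type rescue than in knockout and 1, the ephrin Efnb1, was 2-fold lower, against 2.85% and 1.10% of all genes. The 6 were Slit3, Sema3d, Sema5a, Epha7, Sema3c and Sema3g. Counting any size, 30 were higher and 13 lower, against 45.3% and 54.7% of all genes, with a median of 0.25 over the members and -0.04 over all genes. Limma called none of the 12025 genes, and 5 members were higher and 3 lower at an unadjusted p under 0.05, against 5.90% and 7.42% of all genes. This comparison shares its knockout libraries with the comparison of knockout and control, so their directions are not independent.

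Between the rescue forms, which have 2 clones each, 2 members passed limma at an adjusted p of 0.05: Slit3 and Sema3b fell in TAFH-deleted rescue, and 0 rose. The corresponding shares of all genes were 1.69% lower and 0.931% higher. In size, 8 members were at least 2-fold lower with the deleted form and 1, Sema3e, was 2-fold higher, against 5.94% and 2.60% of all genes. The 8 were Slit3, Sema3b, Sema3c, Sema3d, Sema3g, Sema4g, Sema5a and Ntn1. The wild-type clones also enter the comparison with knockout, so the directions of these comparisons are not independent. Counting any size, 28 were lower and 15 higher, against 43.9% and 56.0% of all genes, with a median of -0.16 over the members and 0.06 over all genes. With quantile normalization, or without wild-type clone 1, the count of 8 became 5, against 4.72% and 5.69% of all genes.

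Compared with knockout, TAFH-deleted rescue had 1 member at least 2-fold higher, Sema3e, and 2 that were 2-fold lower, Ntn4 and Sema3b, against 0.715% and 2.94% of all genes. Limma called none of the 12025 genes, and at an unadjusted p under 0.05 there was 1 member lower and 0 higher, against 4.26% and 2.30% of all genes. Any size of difference divided the members into 21 higher and 22 lower, against 55.7% and 44.2% of all genes, and the median was -0.00 over the members and 0.03 over all genes.

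**Figure D2:**
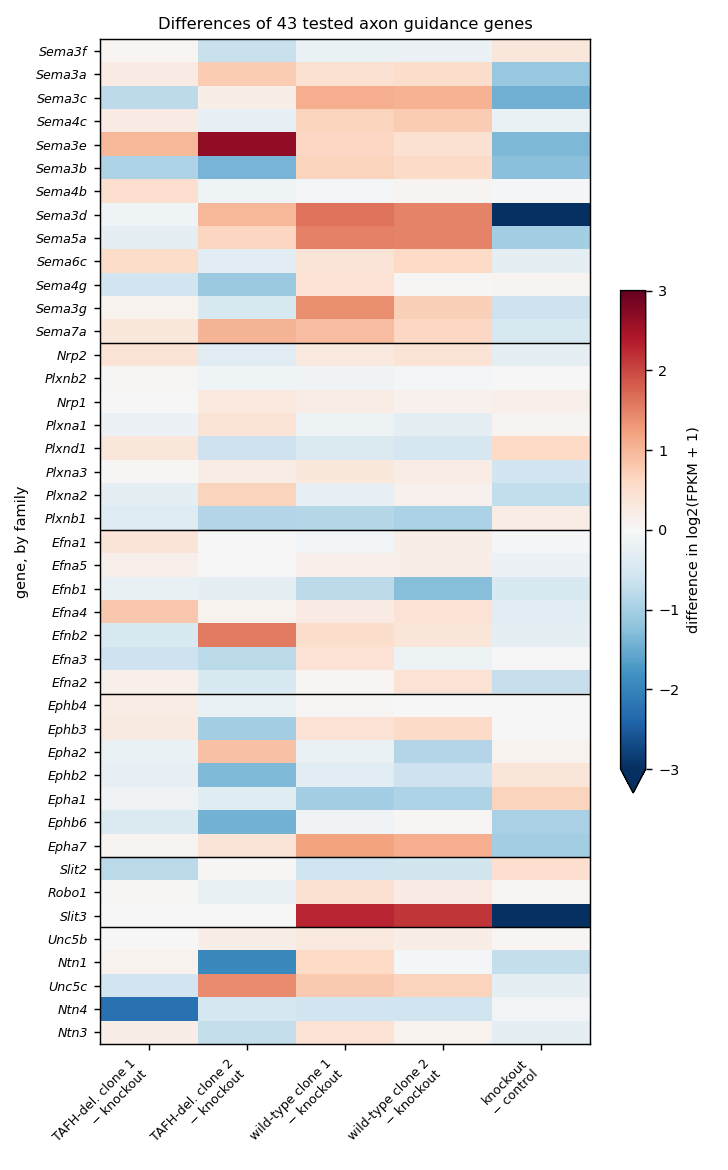
Differences in log2(FPKM + 1) of the 43 tested genes (rows, by family) for each TAFH-deleted clone and each wild-type clone minus knockout, and for knockout minus control (columns), with red for higher and blue for lower. The class 3 semaphorins, Sema5a and Slit3 are red in both wild-type columns, Sema3f excepted, and blue in the last column, Sema3f again excepted.

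Semaphorins made up most of the members with large differences. Of the 13 tested, on the log2(FPKM + 1) scale 6 were at least 2-fold lower in knockout than in control, 4 were 2-fold higher in wild-type rescue than in knockout, and 6 were 2-fold lower in TAFH-deleted than in wild-type rescue. The shares of all genes were 5.76%, 2.85% and 5.94% in the same order. These comparisons share the knockout libraries or the wild-type clones, so the counts are not independent. Sema3d, a secreted semaphorin known from heart and vessel development (chromosome 5, 12383166 to 12588943, mm9), was at 1.23 and 3.94 FPKM in TAFH-deleted rescue, 6.59 and 5.90 in wild-type rescue, 1.49 and 1.43 in knockout, and 20.3 and 20.5 in control. The control was far above every other library, and the wild-type clones lay between it and the rest. Its difference was -3.12 ± 0.61 for knockout against control (log2, SE; limma adjusted p = 0.307), 1.56 ± 0.53 for wild-type rescue against knockout and -1.12 ± 0.43 for TAFH-deleted against wild-type rescue (adjusted p = 0.36 and 0.187). Sema3c, which guides neural crest cells into the cardiac outflow tract (chromosome 5, 17080634 to 17236085), was at 7.32 and 15.2 FPKM in TAFH-deleted rescue, 29.5 and 28.5 in wild-type rescue, 13.4 and 13.2 in knockout, and 37.0 and 38.0 in control. The TAFH-deleted clones straddled knockout, and both were below the wild-type clones, at -1.37 ± 0.35 (adjusted p = 0.105). For Sema3c the difference was -1.43 ± 0.49 for knockout against control and 1.07 ± 0.43 for wild-type rescue against knockout (adjusted p = 0.525 and 0.407).

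Sema3b, a secreted semaphorin that neighbours Sema3f (chromosome 9, 107500446 to 107511572), was at 3.42 and 2.24 FPKM in TAFH-deleted rescue, 12.5 and 11.6 in wild-type rescue, 7.62 and 7.30 in knockout, and 18.7 and 19.8 in control. It was lowest in the TAFH-deleted clones, below knockout as well as below wild-type rescue, and the groups did not overlap. It fell by 1.78 ± 0.22 in TAFH-deleted against wild-type rescue (log2, SE; limma adjusted p = 0.0497). That call lay next to the threshold, and 8 of 15 alternatives passed, which are not independent checks. Those that drop a control or knockout library keep every rescue clone. Those with all 8 libraries count the near-identical knockout and control pairs as separate samples. The call was lost without wild-type clone 1 or without wild-type clone 2, each of which leaves a single clone on that side. The fit placed Sema3b -1.26 in knockout against control, 0.62 in wild-type rescue against knockout and -1.16 in TAFH-deleted rescue against knockout, with adjusted p of 0.417, 0.432 and 0.666.

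Sema3a, the first collapsin described and a repellent that signals through Nrp1 (chromosome 5, 13396784 to 13603485), was at 23.4 and 33.5 FPKM in TAFH-deleted rescue, 27.3 and 28.5 in wild-type rescue, 19.3 and 19.6 in knockout, and 44.1 and 43.8 in control. The control was again highest, and the 2 rescue forms overlapped. Knockout differed from control by -1.14 ± 0.28 (adjusted p = 0.409), and the 2 rescue forms by 0.00 ± 0.19 with a 95% interval between -0.53 and 0.54. Sema3e, which binds Plxnd1 without a neuropilin (chromosome 5, 14025276 to 14256689), was at 11.9 and 39.4 FPKM in TAFH-deleted rescue, 8.85 and 7.83 in wild-type rescue, 5.41 and 5.40 in knockout, and 15.2 and 15.2 in control. In TAFH-deleted clone 2 it was above control, unlike Sema3a, Sema3c and Sema3d, and clone 1 lay below control and above the wild-type clones. Those neighbours were also higher in clone 2 than in clone 1, by 0.50, 0.96 and 1.15 (log2), against 1.65 for Sema3e. The difference of Sema3e was -1.34 ± 0.84 for knockout against control, 1.83 ± 0.72 for TAFH-deleted rescue against knockout and 1.29 ± 0.59 for TAFH-deleted against wild-type rescue (adjusted p = 0.66, 0.765 and 0.237). Sema3g, a ligand of Nrp2 (chromosome 14, 32031059 to 32042697), was low throughout, at 0.906 and 0.301 FPKM in TAFH-deleted rescue, 3.63 and 1.90 in wild-type rescue, 0.756 and 0.795 in knockout, and 1.81 and 1.66 in control. The wild-type clones were the highest libraries of Sema3g, by 1.05 ± 0.41 over knockout (adjusted p = 0.404), and the TAFH-deleted clones were -1.22 ± 0.34 from them (adjusted p = 0.116).

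Of the membrane-bound semaphorins Sema5a, which carries thrombospondin repeats (chromosome 15, 32174568 to 32626096), was at 1.90 and 4.48 FPKM in TAFH-deleted rescue, 9.06 and 8.82 in wild-type rescue, 2.48 and 2.54 in knockout, and 6.23 and 6.09 in control. Here the wild-type clones exceeded the control as well as knockout. Sema5a differed by -1.03 ± 0.51 for knockout against control, 1.50 ± 0.44 for wild-type rescue against knockout and -1.32 ± 0.36 for TAFH-deleted against wild-type rescue (adjusted p = 0.624, 0.337 and 0.114). Sema4g, another transmembrane semaphorin (chromosome 19, 45063834 to 45077885), was at 0.855 and 0.270 FPKM in TAFH-deleted rescue, 2.69 and 1.83 in wild-type rescue, 1.63 and 1.86 in knockout, and 1.87 and 1.34 in control. The TAFH-deleted clones were lowest, by -0.84 from knockout and -1.07 from wild-type rescue (adjusted p = 0.773 and 0.105), and knockout and control overlapped. The remaining membrane-bound semaphorins, Sema4b, Sema4c, Sema6c and the lipid-anchored Sema7a, differed by less than 2-fold on the log2(FPKM + 1) scale in all 4 comparisons. Sema7a was low, with means of 1.30 FPKM in TAFH-deleted rescue, 1.40 in wild-type rescue, 0.396 in knockout and 0.933 in control, and its mean FPKM in wild-type rescue was 3.53 times that in knockout. It reached 1 FPKM only in the wild-type clones, at 1.64 and 1.16, and in TAFH-deleted clone 2, at 1.83. Its difference from knockout is thus partly set by the filter.

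**Figure D3:**
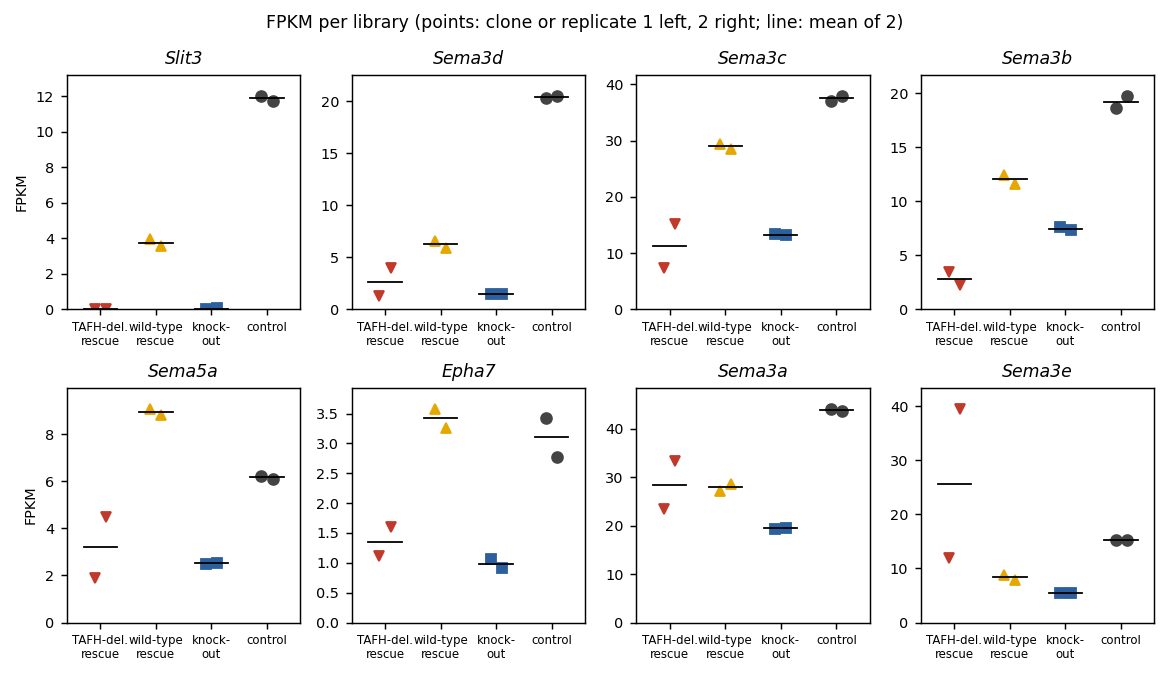
FPKM of 8 genes in each library (linear axes from 0, 1 panel per gene), with TAFH-deleted rescue, wild-type rescue, knockout and control in that order, clone or replicate 1 left and 2 right, and a line at the mean of 2. The control points are highest for Slit3, Sema3d, Sema3c, Sema3b and Sema3a, and the wild-type clones lie above knockout in all 8 panels.

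The neuron markers summed to between 1.68 and 2.84 FPKM in TAFH-deleted rescue, 10.3 and 10.8 in wild-type rescue, 7.50 and 7.97 in knockout, and 13.5 and 14.5 in control, nearly all of it Tubb3. That order resembles the order of Sema3b, and the other neuron markers were at or below 0.216 FPKM in every library. The 6 macrophage markers summed to between 7.71 and 8.73 FPKM in TAFH-deleted rescue, 16.6 and 23.2 in wild-type rescue, 13.6 and 14.9 in knockout, and 14.7 and 15.9 in control, and their part in these results was not tested. Sema3a, Sema3c, Sema3d and Sema3e lie in 4.85 megabases of chromosome 5 (12383166 to 17236085, mm9), a stretch looked at after the values were seen. It lists 16 genes, of which 7 were tested and 6 were lower by any size in knockout than in control, against 54.9% of all genes. The 6 include the 4 semaphorins that defined the stretch, so the choice of stretch largely fixed this count. Hgf, the gene of hepatocyte growth factor, was among the 6, at 0.192 and 0.0724 FPKM in TAFH-deleted rescue, 11.9 and 8.46 in wild-type rescue, 0.265 in each knockout library, and 4.45 and 5.12 in control. The calcium channel subunit gene Cacna2d1 was another, at 12.9 and 16.2 FPKM in TAFH-deleted rescue, 21.0 and 19.2 in wild-type rescue, 9.90 and 9.81 in knockout, and 16.4 and 17.0 in control.

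Among slits and robos, Slit3, a secreted robo ligand (chromosome 11, 34934958 to 35522009), had the largest differences of any member in 3 comparisons. It was at 0.0146 and 0.0386 FPKM in TAFH-deleted rescue, 3.97 and 3.55 in wild-type rescue, 0.0141 and 0.0423 in knockout, and 12.0 and 11.8 in control. TAFH-deleted rescue and knockout overlapped near 0, and the wild-type clones reached 33.4% and 29.9% of the control mean. These levels stand for 4 fragments over both TAFH-deleted clones, 613 over both wild-type clones, 4 over both knockout libraries and 1969 over both control libraries. Scaled to depth, TAFH-deleted rescue had 0.00727 times the wild-type rescue level (exact 95% interval 0.00197 to 0.0187), and knockout had 0.00237 times the control level (0.000645 to 0.00608). The intervals cover counting error only.

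On the log2(FPKM + 1) scale Slit3 fell by 2.21 ± 0.16 in TAFH-deleted against wild-type rescue (SE, limma adjusted p = 0.0366). Of 15 alternatives 12 passed, but they are not independent checks. Those that drop a control or knockout library keep every rescue clone, so they could hardly change this call. Those with all 8 libraries count the near-identical knockout and control pairs as separate samples. The limma call was lost without wild-type clone 1 (adjusted p = 0.537) or without wild-type clone 2 (adjusted p = 0.396), each of which leaves a single clone on that side, and without a filter on low values (adjusted p = 0.0612). Wild-type rescue differed from knockout by 2.21 ± 0.20 and knockout from control by -3.65 ± 0.23 (adjusted p = 0.201 and 0.128). TAFH-deleted rescue and knockout differed by -0.00 ± 0.20, with a 95% interval between -0.54 and 0.54. Slit2 and Robo1, the other tested members of the family, differed by less than 2-fold in all 4 comparisons, and Slit2 was higher in knockout than in control by 0.51 ± 0.43 (adjusted p = 0.736).

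Netrins differed mostly through single clones. Ntn1, which attracts or repels axons depending on the receptor (chromosome 11, 68022866 to 68200328), was at 16.0 and 3.07 FPKM in TAFH-deleted rescue, 22.6 and 14.2 in wild-type rescue, 14.4 and 14.9 in knockout, and 24.6 and 24.5 in control. TAFH-deleted clone 2 was low and clone 1 lay among the wild-type clones and knockout, so the difference of -0.92 ± 0.93 between TAFH-deleted rescue and knockout (adjusted p = 0.848) became 0.11 without clone 2. Ntn4, a laminin-binding netrin (chromosome 10, 93103794 to 93208717), stood at 1.02 and 5.58 FPKM in TAFH-deleted rescue, 5.39 and 5.28 in wild-type rescue, 8.26 and 8.72 in knockout, and 8.85 and 9.32 in control. For Ntn4 it was clone 1 that stood apart, and the difference between TAFH-deleted rescue and knockout was -1.38 ± 0.75 (adjusted p = 0.793). Of the netrin receptors, Unc5c was at 3.01 and 15.0 FPKM in TAFH-deleted rescue, 9.39 and 8.45 in wild-type rescue, 4.98 and 4.98 in knockout, and 6.26 and 6.36 in control. TAFH-deleted clone 2 was the highest library of Unc5c and clone 1 the lowest.

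Among ephrins none of the 7 tested differed by 2-fold on the log2(FPKM + 1) scale between knockout and control or between the rescue forms. In mean FPKM Efna2 did, at 0.911 in knockout and 2.07 in control, as did Efna3, at 2.26 in TAFH-deleted rescue and 5.04 in wild-type rescue; both are lipid-anchored. Efnb1, a transmembrane ephrin encoded on the X chromosome (chromosome X, 96331469 to 96344330), was at 15.2 and 14.3 FPKM in TAFH-deleted rescue, 9.93 and 6.82 in wild-type rescue, 17.4 and 18.2 in knockout, and 25.5 and 24.1 in control. The wild-type clones were lowest and the control libraries highest, with no overlap between groups. Efnb1 differed by -1.02 ± 0.26 for wild-type rescue against knockout and 0.77 ± 0.21 for TAFH-deleted against wild-type rescue (adjusted p = 0.31 and 0.116). The 381 tested genes of the X chromosome had a median of -0.55 and 0.59 in the same comparisons, and the part of a chromosome-wide shift in Efnb1 was not tested. Efnb2, a transmembrane ephrin and ligand of Ephb4, was at 8.18 and 35.5 FPKM in TAFH-deleted rescue, 16.9 and 15.0 in wild-type rescue, 11.0 and 12.0 in knockout, and 14.2 and 14.1 in control. Only TAFH-deleted clone 2 was high, and the other 7 libraries lay between 8.18 and 16.9 FPKM.

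Among Eph receptors 1 of 7 tested, Epha7, differed by 2-fold between knockout and control on the log2(FPKM + 1) scale, and in mean FPKM Ephb6 did too. Epha7, which binds ephrin-A ligands (chromosome 4, 28740295 to 28894649), was at 1.11 and 1.59 FPKM in TAFH-deleted rescue, 3.57 and 3.26 in wild-type rescue, 1.07 and 0.910 in knockout, and 3.43 and 2.77 in control. Wild-type rescue and control overlapped, and both lay above TAFH-deleted rescue and knockout. Epha7 differed by -1.04 ± 0.27 for knockout against control, 1.15 ± 0.24 for wild-type rescue against knockout and -0.92 ± 0.19 for TAFH-deleted against wild-type rescue (adjusted p = 0.428, 0.262 and 0.0818). Ephb6, an Eph receptor whose kinase domain is inactive (chromosome 6, 41555481 to 41570506), was at 1.34 and 0.191 FPKM in TAFH-deleted rescue, 1.93 and 2.23 in wild-type rescue, 2.17 and 2.15 in knockout, and 5.05 and 5.30 in control. TAFH-deleted clone 2 was lowest and the control libraries highest. Its difference between TAFH-deleted rescue and knockout was -0.92 ± 0.46 (adjusted p = 0.793), and it turned to 0.60 when the more abundant of its 2 transcripts was taken in place of their sum.

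Plexins and neuropilins, the semaphorin receptors, held few large differences. On the log2(FPKM + 1) scale none of the 8 tested differed by 2-fold in any of the 4 comparisons. In mean FPKM 2 did: Plxnb1 at 0.469 in TAFH-deleted rescue, 0.193 in wild-type rescue and 1.24 in knockout, and Plxna2, another semaphorin receptor, whose mean FPKM in knockout was 0.488 times that in control. The family's medians were 0.15 for TAFH-deleted against wild-type rescue, -0.08 for wild-type rescue against knockout, 0.07 for TAFH-deleted rescue against knockout and 0.04 for knockout against control. Nrp1, the receptor of Sema3a, was at 44.7 and 55.5 FPKM in TAFH-deleted rescue, 53.1 and 49.8 in wild-type rescue, 45.1 and 45.7 in knockout, and 40.4 and 41.0 in control. The control libraries were its lowest, by 0.15 ± 0.18 on the log2 scale for knockout against control (adjusted p = 0.801). Plxnb2, a receptor for class 4 semaphorins, was at 60.9 and 54.3 FPKM in TAFH-deleted rescue, 54.9 and 56.4 in wild-type rescue, 59.3 and 59.0 in knockout, and 59.3 and 59.1 in control, a range narrower than that of most members. Plxnd1, the receptor of Sema3e, was at 23.1 and 11.4 FPKM in TAFH-deleted rescue, 13.1 and 12.4 in wild-type rescue, 18.2 and 17.7 in knockout, and 11.5 and 11.8 in control. TAFH-deleted clone 1 and knockout were higher than the other libraries of Plxnd1, and knockout differed from control by 0.59 ± 0.50 (adjusted p = 0.738). Fragments filled between 41.5% and 61.4% of the possible read starts in Sema3f and between 38.7% and 57.7% in Unc5b. In the most covered gene of each library they filled 92.7% to 97.3%. Reads with the same start may have been counted once, which is not stated in the sources used here. Highly covered genes would then leave less room for new read starts. Whether this compresses differences of abundant members was not tested.

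Promoters are shown for the 5 members that were at least 2-fold lower in knockout than in control and at least 2-fold higher in wild-type rescue than in knockout. The comparisons share the knockout libraries, so this is a choice of what to show and not a result. Sequences are RefSeq promoter windows on GRCm38.p6, 250 bases before to 50 bases after the annotated start, written 5′ to 3′ on the gene's strand, whereas the expression table is on mm9. Capitals mark each E-box, CANNTG. All 5 genes are on the plus strand: Slit3 at chr11:35121206-35121505, Sema3d at chr5:12382916-12383215, Sema3c at chr5:17574566-17574865, Sema5a at chr15:32244563-32244862 and Epha7 at chr4:28812881-28813180.
Slit3 promoter: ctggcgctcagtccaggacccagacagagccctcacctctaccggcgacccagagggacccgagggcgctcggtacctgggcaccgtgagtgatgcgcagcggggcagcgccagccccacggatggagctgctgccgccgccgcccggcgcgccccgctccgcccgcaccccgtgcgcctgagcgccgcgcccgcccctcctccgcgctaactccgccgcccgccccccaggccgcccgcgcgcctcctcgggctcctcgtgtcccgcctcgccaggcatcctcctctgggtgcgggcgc
Sema3d promoter: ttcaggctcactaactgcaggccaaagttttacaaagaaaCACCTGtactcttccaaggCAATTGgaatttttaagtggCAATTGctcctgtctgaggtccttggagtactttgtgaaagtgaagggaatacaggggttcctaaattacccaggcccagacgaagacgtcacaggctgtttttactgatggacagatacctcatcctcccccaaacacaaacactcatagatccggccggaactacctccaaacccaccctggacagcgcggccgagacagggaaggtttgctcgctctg
Sema3c promoter: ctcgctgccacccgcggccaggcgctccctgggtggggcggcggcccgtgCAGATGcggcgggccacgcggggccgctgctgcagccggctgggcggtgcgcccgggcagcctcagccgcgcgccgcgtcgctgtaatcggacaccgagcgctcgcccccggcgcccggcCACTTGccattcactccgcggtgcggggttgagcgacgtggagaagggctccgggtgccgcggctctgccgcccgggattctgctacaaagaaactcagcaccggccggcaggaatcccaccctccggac
Sema5a promoter: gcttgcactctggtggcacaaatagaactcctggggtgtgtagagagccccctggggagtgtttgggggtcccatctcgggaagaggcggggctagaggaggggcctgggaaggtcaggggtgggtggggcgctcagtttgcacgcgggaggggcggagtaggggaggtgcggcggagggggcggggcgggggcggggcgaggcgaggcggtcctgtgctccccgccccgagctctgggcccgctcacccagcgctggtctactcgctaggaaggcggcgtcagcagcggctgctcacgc
Epha7 promoter: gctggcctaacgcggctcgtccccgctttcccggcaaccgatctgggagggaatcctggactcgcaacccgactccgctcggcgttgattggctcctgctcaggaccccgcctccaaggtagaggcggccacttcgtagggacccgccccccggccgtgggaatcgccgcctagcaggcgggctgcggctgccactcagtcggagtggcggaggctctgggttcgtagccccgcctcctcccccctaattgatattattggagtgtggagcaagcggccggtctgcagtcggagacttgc
The Sema3d window held 3 E-boxes, CACCTG 210 bases before the start and CAATTG 191 and 171 bases before it. The Sema3c window held 2, CAGATG 200 and CACTTG 80 bases before the start, and the windows of Slit3, Sema5a and Epha7 held none. Over both strands, CANNTG (a motif that reads as CANNTG on either strand) was in 17 of the 39 promoters found for tested members, or 43.6%. It was in 72.2% of 27025 reference promoters, 1 per gene, taken whether or not the gene was expressed here. Its form CAGGTG, with the reverse complement CACCTG, was in 15.4% of the members' promoters and 20.0% of all, and CAGCTG in 10.3% and 16.1%. Of the 8 members at least 2-fold lower in knockout 7 had a promoter, and 4 of these held CANNTG. A match in such a window is a description of its letters. The members' promoters and the reference promoters were not matched for expression or base composition. The gaps between their shares are therefore not a result about the members.

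The rescue clones varied unequally. Against knockout, the TAFH-deleted clones taken alone had 1 member at least 2-fold higher and 1 lower in clone 1, and 5 higher and 6 lower in clone 2. The shares of all genes were 0.416% and 2.20% for clone 1, and 3.52% and 4.94% for clone 2. The wild-type clones had 6 higher and 1 lower in clone 1, and 5 higher and 1 lower in clone 2, against 3.30% and 1.11% of all genes for clone 1 and 2.81% and 1.41% for clone 2. Between the TAFH-deleted clones 9 members differed by at least 2-fold (7.68% of all genes), and between the wild-type clones 0 did (0.324%). The 9 were Epha2, Ephb2, Ephb3, Efnb2, Ntn1, Ntn4, Unc5c, Sema3d and Sema3e, 6 of them higher in clone 2 and 3 lower.

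**Figure D4:**
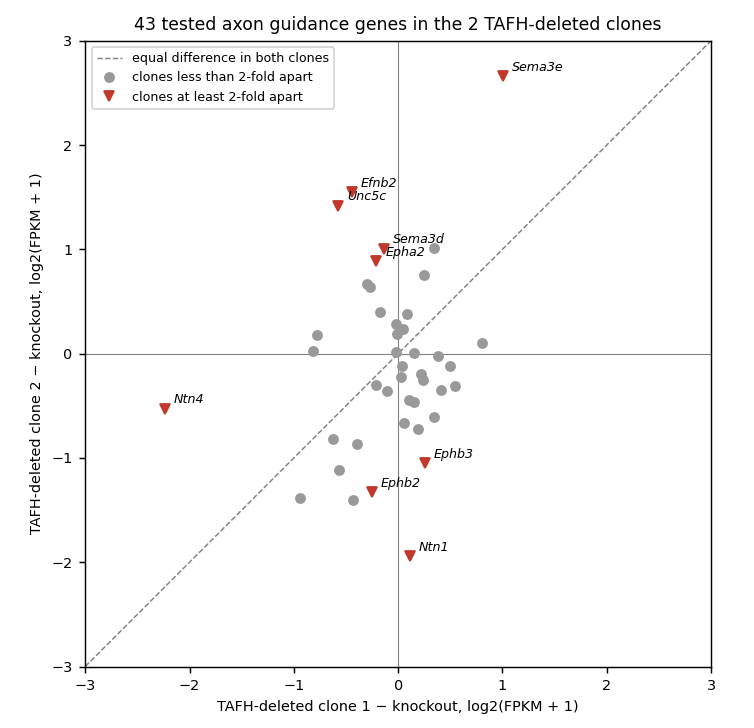
Difference in log2(FPKM + 1) from knockout of the 43 tested genes in TAFH-deleted clone 1 (x axis) and clone 2 (y axis), with a dashed line where both are equal. The 9 genes at least 2-fold apart are named, and Slit3 lies near the origin in both clones, at -0.02 and 0.01.

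Other genes of the pathway were listed beside the members. Of 20 co-receptors and further ligands 12 were tested, and of 40 signalling genes inside the cell 37 were tested, and limma called none of them in any of the 4 comparisons. For knockout against control, 0 co-receptors were at least 2-fold higher and 1 was lower, and 0 signalling genes were higher and 2 lower, with medians of 0.01 and 0.02. Of all genes, 0.798% were 2-fold higher and 5.76% lower there. For TAFH-deleted against wild-type rescue, 2 co-receptors were 2-fold higher and 1 lower, and 1 signalling gene was higher and 0 lower, with medians of 0.18 and 0.19. The shares of all genes were 2.60% higher and 5.94% lower. For wild-type rescue against knockout, 0 co-receptors were 2-fold higher and 2 lower, and no signalling gene differed by 2-fold, with medians of -0.04 and -0.11. The shares of all genes were 2.85% higher and 1.10% lower. For TAFH-deleted rescue against knockout, 1 co-receptor and 1 signalling gene were 2-fold higher and 0 lower, with medians of 0.15 and 0.05. The shares of all genes were 0.715% higher and 2.94% lower. Flrt2, a membrane ligand of Unc5 receptors, was at 4.09 and 12.9 FPKM in TAFH-deleted rescue, 0.0255 and 0.00858 in wild-type rescue, 2.19 and 2.03 in knockout, and 1.97 and 2.14 in control. It was nearly absent from the wild-type clones and present in the other 6 libraries, with a difference of 3.05 between the rescue forms (limma adjusted p = 0.0677). Pdzrn3, a ubiquitin ligase gene, was at 0 and 0 FPKM in TAFH-deleted rescue, 0.0150 and 0.0152 in wild-type rescue, 0.588 and 0.536 in knockout, and 6.06 and 5.58 in control. Its control libraries alone exceeded 1 FPKM, so it was tested through them, the filter set the direction of its difference from control, and it counts among the 2 signalling genes that were lower in knockout. L1cam, an adhesion molecule that partners Nrp1 and lies on the X chromosome, was at 5.06 and 4.09 FPKM in TAFH-deleted rescue, 9.58 and 9.07 in wild-type rescue, 9.63 and 9.24 in knockout, and 9.80 and 10.2 in control. Both TAFH-deleted clones were the lowest libraries of L1cam, by -0.89 from wild-type rescue (adjusted p = 0.0792).

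In the authors' deposited table, Cuffdiff tested 48 member transcripts for knockout against control and called 38, of which 12 were higher and 26 lower in knockout, where 53.8% of all transcripts were called. For wild-type rescue against knockout, 31 of 45 were called in the authors' deposited table, 21 higher and 10 lower in wild-type rescue, with 25.8% of all transcripts called. For TAFH-deleted rescue against knockout the authors' deposited table called 0 of 44, and 0.957% of all. All these calls use the knockout pair, and the first comparison also the control pair, whose libraries differed by less than sampling noise. How Cuffdiff counted these pairs is not given in the sources used here, so its calls may overstate the evidence. Directions over all transcripts were not counted.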

How the data were processed

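The authors deposited FPKM values for 30028 RefSeq transcripts in 8 libraries, with group means, transcript lengths in bases and, for 3 comparisons, p-values and q-values of Cuffdiff. Per the submitters' processing notes, CASAVA 1.8, TopHat, Cufflinks and Cuffdiff were used with mm9, and options and other versions are not given in the sources used here. Deposited lengths served for filtering and depth. Coordinates are mm9, counted from 1.

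FPKM were summed per gene. The 12025 genes tested reached 1 FPKM in 2 or more libraries and had a longest transcript of 300 bases or more. Low FPKM were whole multiples of 1 fragment in 96.0% to 97.4% of low values (tolerance 0.05 fragments, 202.0 bases taken from each length), which gave depth. With the knockout and control pairs averaged, 6 samples were fitted with limma 3.58.1 (trend) in R 4.3.3 on log2(FPKM + 1), with no covariate, 2 residual and 2.15 prior degrees of freedom, two-sided, with Benjamini-Hochberg adjustment over all 12025 genes at 0.05. Differences therefore understate the change of low genes. The spread comes from the rescue clones alone, and knockout and control, with 1 sample each, are assumed to vary like them. A run of the fit on simulated data drew every sample with the fitted spread, so it cannot check this assumption. Python 3.11.15 made the counts and plots.

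Values in every library are given for members called in any comparison, for the 6 with the largest absolute difference in each, and for the 2 of highest mean in each family. Efna2, Efna3, Efnb1, Efnb2, Epha1, Nrp1, Plxna2, Plxnb1, Plxnb2, Plxnd1, Sema7a, Unc5c, Hgf and Cacna2d1 were chosen after their values were seen. Members and lists were chosen with earlier results of these data known. Of 68 members 59 matched a RefSeq promoter. The main results use only sums for genes of several transcripts, since the 4696-base transcript of Nrp2 was at 30.4 and 0.586 FPKM in the near-identical control libraries. Single transcripts enter only through the authors' Cuffdiff calls and the alternative with the most abundant transcript. The locus of Ntn3 overlaps Tbc1d24, and those of Slit2 and Slit3 hold Mir218-1 and Mir218-2, so their reads may be shared.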

Additional observations from a re-analysis of the deposited data

How the results depend on the processing

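Most named differences kept their direction: of 354 alternative values of single genes, 271 kept direction and side of the threshold, 71 newly passed it, 10 no longer did and 2 reversed. The reversals were Ephb6 for TAFH-deleted rescue against knockout with the most abundant transcript (0.60) and Ntn1 without TAFH-deleted clone 2 (0.11), whose leave-one-out range was -1.94 to 0.11.

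Counts of members called moved with the spread, and so did those of all genes, whose share called under the same setting is given in brackets. The count of 2 of 43 for TAFH-deleted against wild-type rescue [2.62%] became 1 with a pseudocount of 0.1 [1.18%], with quantile normalization [1.50%], with the most abundant transcript [0.817%] or with these groups alone [1.91%], and 13 with all 8 libraries counted [38.0%]. Leave-one-out gave 0 to 31, the 0 without either wild-type clone [0%] and 31 without TAFH-deleted clone 1 [55.9%]. For wild-type rescue against knockout, the count of 0 became 1 without a filter [2.41%], 11 with all 8 libraries [24.9%] and 21 with these groups alone [26.4%]. Leave-one-out gave 0 to 22 there, the 22 without TAFH-deleted clone 1 [26.7%] or clone 2 [26.6%]. For TAFH-deleted rescue against knockout, 0 became 1 without a filter [1.69%] and 1 with all 8 libraries [8.93%], with leave-one-out 0 to 19, the 19 without TAFH-deleted clone 1 [33.4%]. For knockout against control, 0 became 6 without a filter [4.86%] and 9 with all 8 libraries [23.8%], with leave-one-out 0 to 13, the 13 without TAFH-deleted clone 1 [22.6%] or clone 2 [22.1%]. Knockout and control alone leave no residual degrees of freedom. With the replicate number as a block over all 8 libraries the counts were 12 [32.6%], 10 [18.6%], 1 [3.83%] and 8 [16.8%], in the same order of comparisons. Deviations of same-numbered libraries correlated between -0.0776 and 0.0571, so the numbers did not pair the samples.

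The median for TAFH-deleted against wild-type rescue was -0.19 with a pseudocount of 0.1, -0.051 without a filter and -0.13 with the most abundant transcript (leave-one-out -0.22 to -0.14). It was 0.057 without a filter for wild-type rescue against knockout (leave-one-out 0.19 to 0.30). For TAFH-deleted rescue against knockout leave-one-out gave -0.12 to 0.028. For knockout against control it was -0.092 without a filter and -0.028 with quantile normalization (leave-one-out -0.27 to -0.22). Counts of 2-fold members, an alternative chosen after seeing the data, gave 5 [4.72%] for TAFH-deleted against wild-type rescue with quantile normalization and 12 [9.14%] with a pseudocount of 0.1, 7 [5.03%] higher in wild-type rescue than knockout and 12 [8.17%] lower in knockout than control, both with a pseudocount of 0.1, and leave-one-out ranges of 5 to 9 lower in TAFH-deleted than wild-type rescue, 5 to 6 higher in wild-type rescue than knockout, and 7 to 8 lower in knockout than control.

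Depth limits low members: a member with 1 to 3 fragments in a library, such as Slit3 in knockout, cannot be told from absence. The cause of these shifts was not tested.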
